A study of Mus musculus with 6 samples.

Results

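The members described here were the 3 solvent control libraries, DMSO replicates 1, 2 and 3, of a series of 6 mouse libraries. They were chosen by their labels alone, with no use of measured values. Each library held RNA of the S2 and S3 segments of the proximal tubule, dissected by hand from kidneys of C57Bl/6 mice, with 5 to 10 tubules pooled from each kidney. The series text calls the animals control mice, states a single injection at 3 mg/kg of either DMSO or aristolochic acid I, and gives 24 h as the time of collection. DMSO, dimethyl sulfoxide, is the solvent in which the plant toxin aristolochic acid I is given. Sex, age and genotype are not given in the labels, nor is it said whether the 3 libraries came from separate animals. The spread between them may therefore be partly technical. The question addressed was which genes make up the RNA of these tubules at baseline, in what shares, and how evenly over the 3 libraries.

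The proximal tubule takes back most of the glucose, amino acids, phosphate, bicarbonate and small proteins that pass the glomerular filter. Its first segment, S1, carries the high-capacity apical carriers, S2 is known for uptake of organic anions from the blood, and S3 runs straight into the outer medulla and finishes the work with high-affinity carriers. The cells burn fatty acids rather than glucose, make glucose and ammonia, and hold many enzymes that modify drugs and steroids.

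The libraries held 23896026, 31136251 and 15958557 counted reads, so that 1 read stood for 0.0418 CPM, 0.0321 CPM and 0.0627 CPM (CPM, counts per 1000000 counted reads of the library). A gene with no reads could still lie at up to 3 reads, which is 0.126 CPM, 0.0964 CPM and 0.188 CPM. Reads were found for 18518, 18770 and 18424 of the 32544 genes, and for 18232, 18381 and 18424 genes when every library was thinned to 15958557 reads. A mean of at least 1 CPM was reached by 13859 genes and of at least 10 CPM by 9093 genes. For 100 CPM the number was 2027 genes and for 1000 CPM it was 95 genes. Counts of list members at 10 CPM or 100 CPM, given below, are to be read beside these numbers, since most genes at 1 CPM also reached 10 CPM. Replicate 3 was more than 2-fold above both other libraries for 272 genes and more than 2-fold below both for 300 genes. These were 1.96% and 2.16% of the 13859 genes. Replicate 1 stood more than 2-fold above both others for 80 genes (0.577%) and below both for 373 (2.69%). Replicate 2 stood above both for 236 genes (1.7%) and below both for 149 (1.08%). Names of pseudogenes or predicted genes were 1132 of all 13859 genes. They were 147 of the 272 genes above and 72 of the 300 below in replicate 3. In replicate 1 they were 32 of the 80 above and 115 of the 373 below. For replicate 2 the numbers were 60 of the 236 above and 63 of the 149 below. Values are therefore given for every library, and errors after ± are SDs over the 3 libraries (n = 3). CPM grows with transcript length, so CPM values show the libraries of 1 gene and how many genes reached a minimum. Levels of different genes are to be compared on length-scaled CPM, which is CPM divided by exonic length and scaled to the same total as CPM in each library.

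Kap had the highest length-scaled level of the nuclear genes with a gene name. Kap encodes kidney androgen-regulated protein, a small protein of mouse proximal tubules. It was read at 30409.5, 21273 and 19223 CPM in replicates 1, 2 and 3, with a mean of 23635 ± 5956 CPM. It was highest in replicate 1 and lowest in replicate 3. Its length-scaled level was 96535 ± 21379 (SD, n = 3), above the next gene of this ranking, Gpx3, in every library. Gpx3, the secreted glutathione peroxidase that the kidney releases into plasma, was read at 4342, 4875 and 4359 CPM and had a length-scaled level of 7271 ± 1053. Its 3 libraries lay within a 1.12-fold range.

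**Figure D1:**
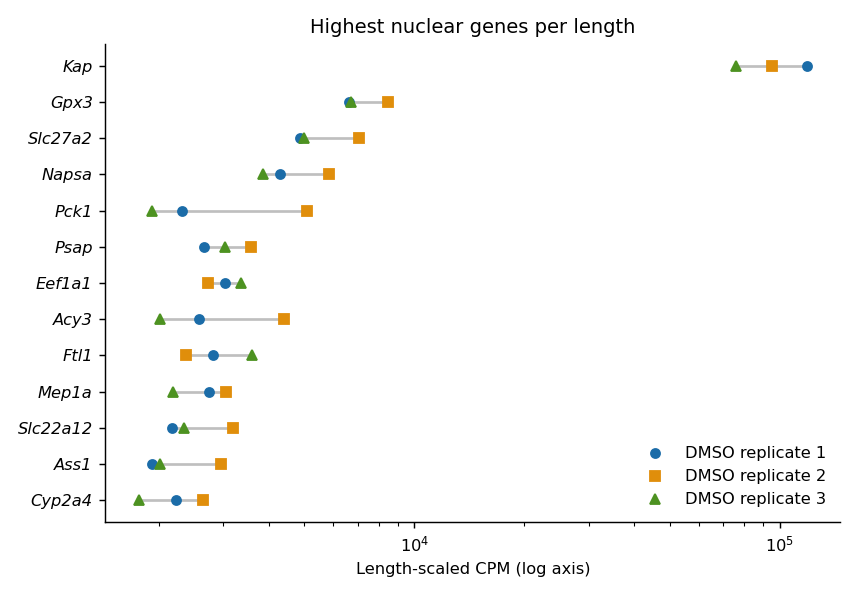
Length-scaled CPM (horizontal log axis) of 13 of the 15 highest nuclear genes, with 1 symbol for each DMSO library and a grey line over their range; mitochondrially encoded genes and names of pseudogenes or predicted genes are left out. Kap stands apart to the right in all 3 libraries, and replicate 2 (square) lies to the right of the other libraries for most of the other genes. Each library is scaled to the same total, of which mitochondrially encoded genes hold 23.5%, 12.7% and 27.5% in replicates 1, 2 and 3. The order of the libraries therefore depends on this scaling as well.

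Slc27a2 came next among the named genes, with 6633, 8398 and 6698 CPM and a length-scaled level of 5640.4 ± 1231. It encodes a fatty acid transporter that also activates very long-chain fatty acids. Napsa, which encodes the lysosomal aspartic protease napsin A, was read at 4136, 4924 and 3665 CPM. Pck1, the cytosolic enzyme that commits oxaloacetate to glucose synthesis, was read at 2881, 5508 and 2357 CPM, and replicate 2 was 2.34-fold above the lowest library. The 15 highest genes per length also held, among others, Psap, Eef1a1, Acy3, Ftl1, Mep1a, Slc22a12, Ass1 and Cyp2a4, which had length-scaled levels from 2208 for Cyp2a4 to 3089.8 for Psap. Some of these share sequence with copies. Of all 31-base words in the longest transcript, 94.9% for Ftl1, 74.8% for Eef1a1, 61.5% for Ass1 and 58.9% for Cyp2a4 also occurred in transcripts of other genes, so their values are uncertain. The share was 0% for Kap, Psap and Mep1a.

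By CPM alone, without regard to length, the order of the same nuclear genes with a gene name was led by Kap, Lrp2 with 8476, 7120.0 and 6251 CPM, Slc27a2, Atp11a with 4865, 7036 and 6484 CPM, and Gpx3. Lrp2 encodes megalin, the large endocytic receptor that takes filtered proteins from the lumen. Its exons span 16701 bases, and its length-scaled rank was 60. Atp11a encodes a phospholipid flippase. D10Wsu102e was among the 15 highest by CPM, with 2784 ± 193 CPM, but its exonic length of 123179 bases put its length-scaled level at 65.8 ± 9.26.

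Promoters are shown for Kap, Acy3 and Cyp2a4, which held the letters TATAAA near the start, and for Slc27a2 and Lrp2, which did not, to set highly expressed tubule genes with and without them beside each other. Each run is the 100 bases before the gene start in RefSeq (build GRCm38.p6), 5′ to 3′ on the gene's strand, and capitals mark the letters TATAAA where they were found within 50 bases before the start.
Kap (chr6:133853668-133853767, minus strand): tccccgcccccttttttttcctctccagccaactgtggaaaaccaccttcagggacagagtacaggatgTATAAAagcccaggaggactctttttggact
Acy3 (chr19:3986470-3986569, plus strand): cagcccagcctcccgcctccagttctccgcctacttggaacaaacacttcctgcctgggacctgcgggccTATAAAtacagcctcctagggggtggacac
Cyp2a4 (chr7:26307092-26307191, plus strand): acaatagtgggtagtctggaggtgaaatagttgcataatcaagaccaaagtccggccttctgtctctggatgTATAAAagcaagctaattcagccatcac
Slc27a2 (chr2:126552924-126553023, plus strand): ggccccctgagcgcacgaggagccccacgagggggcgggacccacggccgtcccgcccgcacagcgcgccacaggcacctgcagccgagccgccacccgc
Lrp2 (chr2:69586030-69586129, minus strand): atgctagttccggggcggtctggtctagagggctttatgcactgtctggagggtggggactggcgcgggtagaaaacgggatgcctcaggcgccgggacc
The motif began 31 bases before the start in Kap, 30 bases in Acy3 and 28 bases in Cyp2a4. The search covered the gene's strand only and no other motif was searched. Promoters were found for 13 of 19 genes looked up. TATAAA stood in the same window of at least 1 promoter for 3.15% of all 27025 genes with a promoter. It did so for 1.87% of the 10094 such genes at 1 CPM or more. Of the 100 highest genes per length, 77 had a promoter, and 8 of these (10.4%) held it. A match describes letters and does not show that the site is used.

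Counted reads were spread over many genes. The number of genes that together held 50% of the reads was 546, 678 and 603 in the 3 libraries. The 10 highest genes held 12.4%, 8.46% and 12.4% of the reads, and the 100 highest held 29.4%, 24.9% and 28.5%. Replicate 2 was the most even library on each of these measures. When mitochondrially encoded genes were left out, the numbers were 705, 751 and 816 genes, and replicate 1 was then the least even library.

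The 13 mitochondrially encoded genes were the largest class of reads in replicates 1 and 3, apart from genes outside any class. Their share was 8.65%, 4.005% and 10.1% in replicates 1, 2 and 3, with a mean of 7.58% ± 3.17 (SD, n = 3). Counting error was far smaller than this spread, since the widest 95% Wilson interval of any class in any library was 0.0469 percentage points. Intervals and floors cover counting error only. The gene mt-Co1, a core subunit of cytochrome c oxidase, was read at 28439, 11776 and 32733 CPM. By CPM, 12 of the 13 genes were lowest in replicate 2, where 25.8% of all 13859 genes were lowest. The ratio of the highest library to replicate 2 ran from 1.25-fold for mt-Atp8 and 1.41-fold for mt-Nd6 to 10.9-fold for mt-Nd3. The exception was mt-Nd4l, which was lowest in replicate 1, at 231, 246 and 398 CPM, and after TMM scaling (trimmed mean of M values, which takes most genes as level between libraries) it was lowest in replicate 2 as well. Their nuclear partners did not share that order. The 88 nuclear genes of the respiratory chain and ATP synthase held 1.26%, 1.18% and 1.01% and were lowest in replicate 3.

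By mean share of reads, solute carriers of the plasma membrane and other membranes followed, with 4.15%, 4.62% and 3.64% over 337 genes, of which 254 reached 1 CPM. Glutathione, peroxide and metal defence genes held 1.82%, 1.79% and 1.86%, the narrowest relative range (1.0425-fold) among the classes above 1.5% of reads. Among smaller classes, the range was narrower for chaperone genes (1.0408-fold) and for actin and tubulin genes (1.0334-fold). Genes of fatty acid oxidation and the peroxisome, counted here without the solute carrier Slc27a2, held 1.96%, 1.85% and 1.596%, and genes of endocytosis and the lysosome held 1.93%, 1.76% and 1.598%. Genes of gluconeogenesis and ammonia production held 1.14%, 1.53% and 1.005%. The 94 genes of cytosolic ribosomal proteins held 0.736% ± 0.0231 (SD, n = 3). Cytochrome P450 genes held 0.935%, 0.837% and 0.665%. The remaining 18828 genes, which include Kap, Atp11a and Napsa, held 65.8% ± 2.15 (SD, n = 3).

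**Figure D2:**
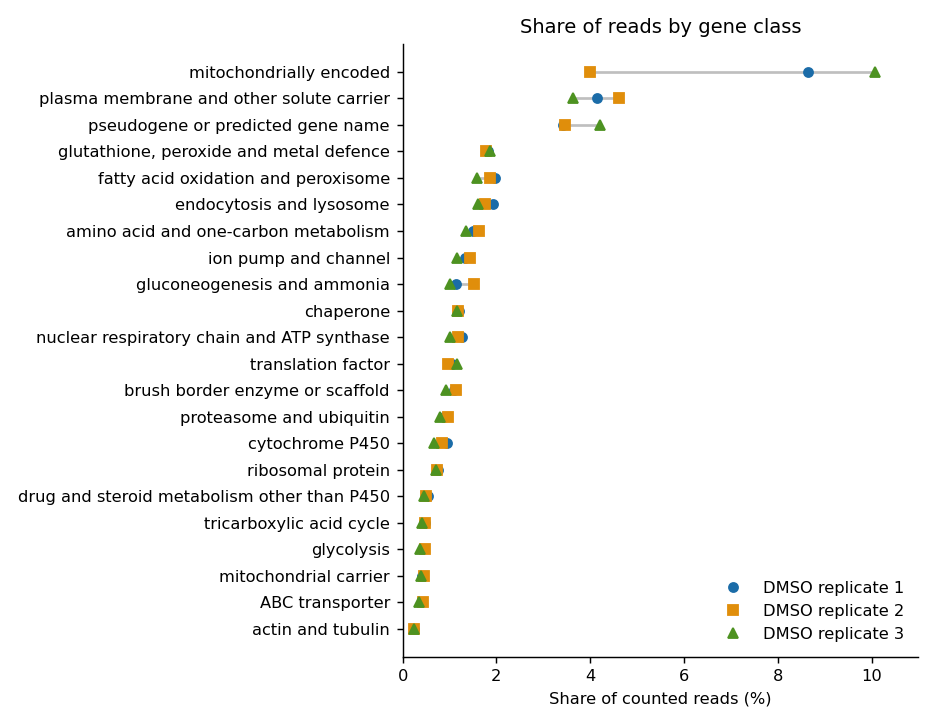
Share of counted reads in percent (horizontal axis) for 22 classes of genes, with 1 symbol for each DMSO library and a grey line over their range; each gene is in 1 class and genes in no class are not drawn. The mitochondrially encoded class has the widest range, from 4.005% in replicate 2 to 10.1% in replicate 3, and solute carriers have the next highest mean.

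Names of pseudogenes and predicted genes held 3.43%, 3.46% and 4.199%. The highest was Gm20594, a predicted gene of 449 bases on chromosome 6, with 7316, 7521 and 9011 CPM. Its length-scaled level of 51299 ± 5731 was the second highest of all genes. Of its 31-base words, 10.02% also occurred in the mitochondrially encoded gene mt-Rnr2, and in no other gene. The origin of its reads was not tested. Gm42927, Gm17131 and Gm17132 came next in this class, and 99.2%, 98.2% and 81.4% of their 31-base words occurred in other genes.

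All 6 genes given as markers of these segments were read at 100 CPM or more in every library. Slc27a2 (chr2:126552407-126588243, plus strand), Lrp2 (chr2:69424340-69586065, minus strand) and Acy3 (chr19:3986570-3990007, plus strand) are 3 of them. Coordinates are those of GENCODE M21 on GRCm38. Acy3, an aminoacylase that frees amino acids from mercapturates and other conjugates, was read at 1901, 2851 and 1473 CPM. Slc7a13 (chr4:19818725-19842218, plus strand), the cystine and glutamate carrier of S3, was read at 1484, 1656 and 1393 CPM, a 1.19-fold range. Cyp7b1 (chr3:18071950-18243338, minus strand), an oxysterol hydroxylase, was read at 628, 591 and 632 CPM and was the steadiest of the 6. Slc22a7 (chr17:46432183-46438457, minus strand), the organic anion transporter OAT2, was read at 487, 814 and 394 CPM, and replicate 2 was 2.06-fold above replicate 3. Per length the order of the 6 was Slc27a2 at 5640.4 ± 1231, Acy3 at 2995 ± 1251, Slc7a13 at 2057 ± 335, Lrp2 at 1264 ± 191, Cyp7b1 at 825 ± 31.7 and Slc22a7 at 795 ± 374. The mean of Slc7a13 lay within 1 SD of Acy3, but Acy3 was higher in every library, at 2567, 4404 and 2015 against 1912, 2440 and 1819. The means of Cyp7b1 and Slc22a7 lay within 1 SD of each other, and Slc22a7 was the higher in replicate 2 only. Slc27a2 and Lrp2 are on the list for all proximal tubule segments. Acy3, Slc7a13, Cyp7b1 and Slc22a7 are on the S3 list. None of the 6 markers is on the S2 list, so their levels do not show the S2 part of the label. Of their 31-base words, 13.5% for Slc27a2, 11.2% for Acy3 and 1.05% for Slc7a13 were shared with other genes, and none for Lrp2, Cyp7b1 or Slc22a7.

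Genes typical of S3 were far above genes typical of S1. All 15 S3 genes and 7 of 8 S1 genes reached 10 CPM. A level of 100 CPM was reached by 14 of the S3 genes and by 1 of the S1 genes, Slc4a4. The median length-scaled level was 580.3, 778 and 431 for the S3 genes, 294, 442 and 167 for the 5 S2 genes and 23.3, 19.5 and 20.8 for the S1 genes in replicates 1, 2 and 3. The median over the 13466 genes at 1 CPM or more with a length was 12.2, 15.5 and 13.6. The S3 median was 24.96-fold, 39.8-fold and 20.7-fold the S1 median, with a mean ratio of 28.5 ± 10.03 (SD, n = 3). Of the S3 genes, 9 of 15 lay above every S1 gene, and 7 of 8 S1 genes lay below every S3 gene. The exception was Slc4a4, the basolateral sodium bicarbonate cotransporter, with 971, 779.6 and 646 CPM and a length-scaled level of 214 ± 42.03. The defining S1 carriers were low. Slc5a2, the glucose carrier SGLT2, was read at 11.3, 13.9 and 13.2 CPM, and Slc6a19, the main neutral amino acid carrier of S1, at 23.4, 27.4 and 23.9 CPM. Slc2a2, the basolateral glucose exit carrier GLUT2, was read at 88.1, 61.3 and 54.6 CPM. In bulk RNA, fewer cells of a segment and less RNA per cell cannot be told apart.

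The S2 median lay between those of S1 and S3 in every library. The S3 median was 2.103 ± 0.424 times the S2 median (mean and SD of 3 libraries). Slc22a6, the organic anion transporter OAT1, was read at 804, 875 and 415 CPM, and Slc13a3, a dicarboxylate carrier, at 533, 731 and 311 CPM. Both were lowest in replicate 3, as were 4 of the 5 S2 genes. Slco1a1, an organic anion carrier, was lowest in replicate 2 instead, with 561, 309 and 316 CPM. Of the 13859 genes at 1 CPM or more, 29.7% were lowest in replicate 3.

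**Figure D3:**
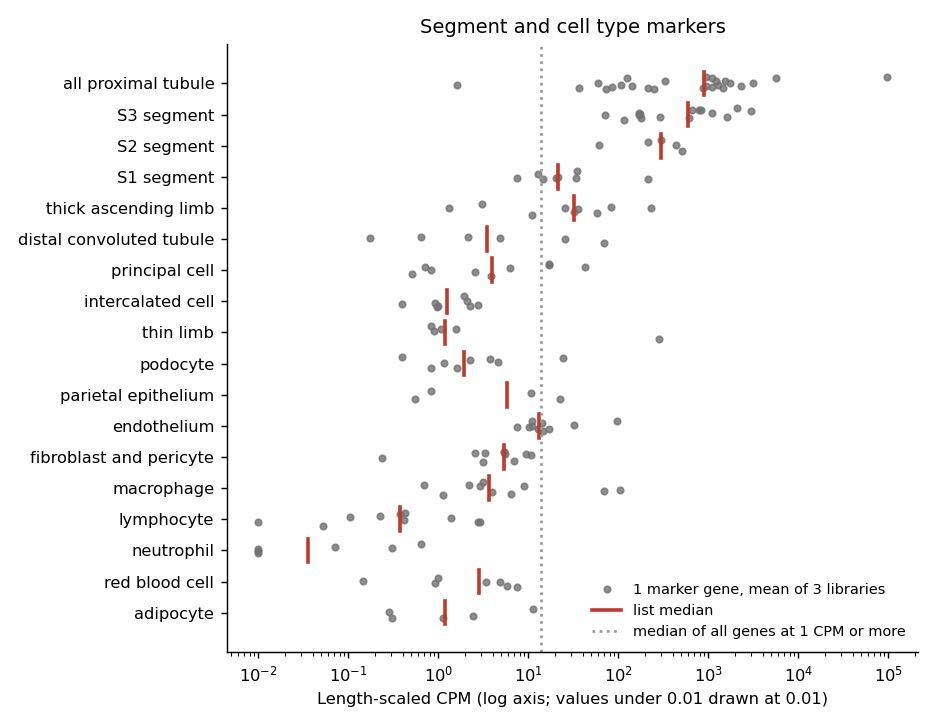
Length-scaled CPM (horizontal log axis) of marker genes of kidney segments and cell types, each grey point the mean of 1 gene over the 3 DMSO libraries, with red bars at list medians and a dotted line at the median of all genes at 1 CPM or more; values under 0.01 are drawn at 0.01. The medians of the proximal tubule, S3 and S2 lists lie well to the right of the dotted line, and those of S1 and thick ascending limb lie slightly to its right.

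Genes of all proximal tubule segments were high. Of 25 genes, 24 reached 10 CPM and 21 reached 100 CPM, with median length-scaled levels of 777, 1060.2 and 851. Aqp1, the constitutive water channel, was read at 1599, 1609 and 1477 CPM, and Slc34a1, the main apical phosphate carrier, at 2361, 3213 and 1424 CPM. Cdh6, a cadherin of developing and mature proximal tubule, was the lowest member at 2.55, 3.76 and 8.71 CPM. Gatm, the first enzyme of creatine synthesis and an abundant gene of convoluted segments, was read at 83.4, 52.4 and 129 CPM.

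On the lists of other nephron segments, a few genes were read at moderate levels. The 9 genes of the thick ascending limb, the segment that follows S3 and the thin limb, summed to 674, 736 and 327 CPM. Umod, the uromodulin gene that is among the most abundant transcripts of that segment, was read at 270.3, 293 and 93.4 CPM, Egf at 163, 177 and 71.2 CPM and Slc12a1, the sodium potassium chloride cotransporter, at 125, 157 and 61.3 CPM. All 3 were lower in replicate 3 than in replicate 2, by 2.48-fold for Egf, 2.56-fold for Slc12a1 and 3.14-fold for Umod. The S3 median was 19.4 ± 3.55 times the median of these 9 genes. Umod shared 17.3% of its 31-base words with 1 predicted gene. The 6 genes of the distal convoluted tubule summed to 133, 191 and 161 CPM, mostly through Wnk4 (98.1 ± 25.5 CPM), while its defining carrier Slc12a3 was read at 15.4, 17.3 and 22.6 CPM and Pvalb and Trpv5 had means under 1 CPM.

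The 9 genes of the principal cell of the collecting duct summed to 191, 93.4 and 89.5 CPM. Aqp4 made up most of this sum, at 159, 53.8 and 68.7 CPM, whereas Aqp2, the water channel that defines the cell, was read at 8.202, 9.41 and 7.27 CPM and Scnn1b and Scnn1g had means under 1 CPM. Of the 8 intercalated cell genes none reached 10 CPM. In the thin limb list Cryab, a small heat shock protein, was read at 117, 166 and 142 CPM, and the other 4 genes had means of 1.61 CPM or less. Among 8 podocyte genes, 2 reached 10 CPM, Podxl at 56.4, 48.01 and 32.1 CPM and Synpo at 9.75, 13.2 and 13.5 CPM. Nphs1, which encodes nephrin of the filtration slit, was read at 5.16 ± 0.666 CPM. The part of other segments in the proximal tubule values was not tested.

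Endothelial genes were present in every library, with sums of 332, 410.0 and 264 CPM. All 10 reached 10 CPM and none reached 100 CPM, against 9093 and 2027 of the 13859 genes at 1 CPM or more. Plvap, a protein of fenestrated capillaries, was the highest per length and was read at 59.05, 82.8 and 52.9 CPM. Of the 10, 8 were highest in replicate 2, where 46.3% of all 13859 genes were highest, and 8 were lowest in replicate 3, against 29.7%. The S3 median was 46.95 ± 4.26 times the endothelial median. The 10 fibroblast and pericyte genes summed to 97.3, 144 and 135 CPM, with Col1a2 at 18.9, 37.7 and 31.3 CPM.

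Immune cell genes were low with exceptions. Of 10 macrophage genes, Csf1r was read at 159, 253 and 202 CPM and Cd74, which encodes the invariant chain of MHC class II, at 33.1, 48.9 and 37.6 CPM, while Adgre1 and Cd68, which define the cell, had means of 1.29 ± 0.456 CPM and 0.933 ± 0.484 CPM. Csf1r shared 18.1% of its 31-base words with the neighbouring gene Hmgxb3, so its level is uncertain. None of the 10 lymphocyte genes reached 10 CPM. Of 6 neutrophil genes, S100a8, S100a9 and Retnlg had no read in any library. Haemoglobin genes were low, with Hbb-bs at 1.09, 0.739 and 2.88 CPM, in kidneys that had been perfused. Of 5 adipocyte genes, Cidec was the highest, at 14.2, 5.49 and 2.07 CPM, and Adipoq was at 1.63, 0.0642 and 0 CPM, both highest in replicate 1.

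Carriers of organic anions and cations, which move drugs, urate and metabolites across the tubule wall, summed to 9587, 10441 and 8139 CPM. All 26 reached 1 CPM and 18 reached 100 CPM. Slc22a12, the urate carrier URAT1 of the brush border, was the highest per length, at 1786, 2287 and 1894 CPM and 2569 ± 544 length-scaled CPM, although 30.99% of its 31-base words occurred in other genes, mostly Nrxn2. Slc22a18 had a length-scaled level of 956 ± 194 and Slc22a13, another urate and anion carrier, of 614 ± 202. The basolateral carriers were unequal. Slc22a6 had a length-scaled level of 514 ± 205, and Slc22a8, the related carrier OAT3, of 60.6 ± 28.2. For cations, Slc22a2 stood at 499 ± 119, and Slc47a1, the apical proton exchanger MATE1 that lets cations out, at 524 ± 89.1. Of the efflux pumps, Abcc2 was read at 1067 ± 35.5 CPM and Abcg2 at 286 ± 67.2 CPM, while Abcc4 and Abcb1a stayed under 10 CPM.

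Among 24 carriers of sugar, phosphate and small anions, Slc34a1 was the highest, at 1471 ± 662 length-scaled CPM, and replicate 2 was 2.26-fold above replicate 3. The second sodium phosphate carrier of the brush border, Slc34a3, was read at 2.13 ± 0.292 CPM. Slc17a1, an anion and urate carrier, stood at 685 ± 118 length-scaled CPM, Slc5a10, a mannose and fructose carrier, at 665 ± 104, and Slc5a8, a monocarboxylate carrier, at 413 ± 45.9. Of the glucose carriers, the S3 type Slc5a1 (SGLT1) was read at 110.4, 114 and 72.8 CPM. Per length its mean level was 70.6 ± 19.5, and that of the S1 type Slc5a2 was 12.9 ± 2.199. Of the 24 genes, 16 were lowest in replicate 3, where 29.7% of all genes were lowest.

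Amino acid carriers summed to 7745, 8491 and 6923 CPM over 19 genes, of which 11 reached 100 CPM. Slc7a13 led at 2057 ± 335 length-scaled CPM. Slc3a1, the heavy chain of the cystine and dibasic amino acid carrier, followed at 1544 ± 261, while its long-known light chain Slc7a9 stood at 46.7 ± 5.54. Slc6a18, a glycine and neutral amino acid carrier of late segments, was read at 1682, 1892 and 1346 CPM and stood at 1084 ± 252 per length. Slc6a6, the taurine carrier, was read at 1328, 1651 and 1339 CPM. Per length, Slc15a2, the high-affinity peptide carrier of S3, stood at 67.5 ± 12.9, and Slc15a1, its low-affinity relative of S1, at 1.31 ± 0.329.

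Genes of acid, sodium and water transport were led by the sodium pump. Its subunit Atp1b1 stood at 1852 ± 350.4 length-scaled CPM and the water channel Aqp1 at 1728 ± 185, so that these means lay within 1 SD. Slc9a3r1, the scaffold NHERF1, was read at 437, 588 and 459 CPM. The apical sodium proton exchanger NHE3, Slc9a3, was read at 27.7, 31.2 and 12.3 CPM, and its relative Slc9a8 at 804, 1075 and 635 CPM. Of the carbonic anhydrases, the membrane enzyme Car4 was read at 73.8 ± 29.5 CPM and the cytosolic Car2 at 44.7 ± 8.09 CPM. Of 21 genes, 15 were lowest in replicate 3, against 29.7% of all genes.

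Endocytosis and lysosome genes were read at 10 CPM or more for 23 of 25, against 9093 of the 13859 genes at 1 CPM or more. Psap, the precursor of the saposins that help break down sphingolipids, was read at 2636, 3115 and 2982 CPM, and Lrp2 stood at 1264 ± 191 length-scaled CPM. Cubn, cubilin, which binds albumin and vitamin carriers beside megalin, was read at 1919.6, 1572 and 1551 CPM. Amn, the small membrane anchor that cubilin needs, was read at 155 ± 39.4 CPM, and per length Cubn and Amn stood at 326 ± 32.7 and 247 ± 83.1. Lamp1, a lysosomal membrane protein, was read at 954, 822 and 745 CPM. Lrp2, Cubn and Lamp1 were among the 11 of 25 genes that were highest in replicate 1, against 20.7% of all genes. Of the others, 9 were highest in replicate 2, with Psap among them, and 5 in replicate 3.

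Brush border genes were read at 10 CPM or more for 22 of 24, against 9093 of the 13859 genes at 1 CPM or more. Mep1a, the meprin alpha protease of the brush border, was read at 3439, 3345 and 2693 CPM and stood at 2662 ± 445 length-scaled CPM, and Mep1b at 703 ± 151. Ggt1, which starts glutathione breakdown on the brush border, stood at 1208 ± 263, and Pdzk1, the scaffold that holds carriers at the apical membrane, at 1101 ± 315. Peptidases of the same membrane were lower per length, with Ace at 432 ± 62.7, Mme at 124 ± 8.84, Anpep at 142 ± 42.97 and Dpp4 at 36.6 ± 0.958. Myo1a, the myosin of the intestinal brush border, was at 0, 0.225 and 0.125 CPM.

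Fatty acid oxidation and peroxisome genes were broadly read, with 44 of 46 at 10 CPM or more and 33 at 100 CPM or more, and sums of 27347, 28117 and 23703 CPM. After Slc27a2, the medium-chain acyl-CoA synthetase Acsm2 stood at 1389.9 ± 293 length-scaled CPM, and Acadm, the medium-chain dehydrogenase of mitochondria, at 1300.2 ± 172. Ehhadh, an enzyme of peroxisomal oxidation, stood at 1269.6 ± 226, and catalase, Cat, at 1156 ± 165. These means lay within a factor of 2, and Acadm was read at 2105, 1577 and 1603 CPM. The carnitine step had Cpt1a at 362 ± 51.9 CPM and Cpt2 at 152 ± 24.4 CPM. Fabp1, the liver-type fatty acid binding protein, was listed at 0, 0.0321 and 0 CPM. Of the 45 genes at 1 CPM or more, 26 were highest in replicate 1, against 20.7% of all genes, and 31 were lowest in replicate 3, against 29.7%.

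For glucose and ammonia production, all 17 genes reached 10 CPM. Pck1 stood at 3103 ± 1715 length-scaled CPM, Fbp1, fructose bisphosphatase, at 1105 ± 128, and G6pc, the last step of glucose release, at 208 ± 122. G6pc was read at 182, 253 and 74.4 CPM. For ammonia, Glud1, glutamate dehydrogenase, was read at 558 ± 40.6 CPM. Replicate 2 was the highest library for 13 of the 17, against 46.3% of all genes, and replicate 3 the lowest for 14, against 29.7%. After TMM scaling replicate 2 was the highest for 9 and replicate 1 for 7, in place of 2.

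Glycolytic genes were unequal between steps. The entry enzymes Hk1 and Hk2 stood at 9.300 ± 3.24 and 0.455 ± 0.128 length-scaled CPM. Gapdh, Aldoa and Tpi1, which also serve the reverse path, stood at 759 ± 125, 632 ± 115 and 547 ± 102, and 31.8% of the 31-base words of Gapdh occurred in copies. Of the exit enzymes, Pkm stood at 40.8 ± 6.94 and Pklr at 30.5 ± 2.95. The 21 genes of the tricarboxylic acid cycle and pyruvate dehydrogenase summed to 5907, 5819 and 5107 CPM. Of the 21, 15 were highest in replicate 1, against 20.7% of all genes, and 16 were lowest in replicate 3, against 29.7%.

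Amino acid and one-carbon metabolism held 53 genes, of which 46 reached 10 CPM. Besides Acy3, Ass1, which makes argininosuccinate for arginine synthesis, was read at 1678, 2269 and 1745 CPM. Its partner Asl was read at 88.05 ± 7.57 CPM. Keg1, a glycine acyltransferase relative, was read at 2055, 1701 and 1778 CPM, and Miox, the first enzyme of inositol breakdown, at 439, 659 and 374 CPM. The serine synthesis genes Phgdh, Psat1 and Psph were read at 25.4 ± 10.9 CPM, 12.9 ± 2.199 CPM and 7.25 ± 0.983 CPM.

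Glutathione and antioxidant genes summed to 18209.6, 17981 and 18701 CPM, a 1.04-fold range, and all 39 reached 1 CPM. Gpx3 led, and the ferritin chains Ftl1 and Fth1 stood at 2927 ± 622 and 1595 ± 251 length-scaled CPM. Both ferritin chains were highest in replicate 3, with Fth1 at 1982, 1489.6 and 2303 CPM. Gstm1, a glutathione transferase, was read at 592, 749 and 913 CPM, and Gpx1, the cytosolic peroxidase, stood at 1279 ± 119 length-scaled CPM. Synthesis genes Gclc, Gclm and Gss were read at 487 ± 34.9 CPM, 689.9 ± 53.9 CPM and 523 ± 92.4 CPM. Metallothioneins, the metal-binding proteins, were read at 5.73, 6.29 and 6.33 CPM for Mt1 and 2.97, 3.66 and 0.627 CPM for Mt2. Nqo1, a quinone reductase, was read at 54.8, 71.3 and 69.2 CPM and Hmox1, heme oxygenase 1, at 26.4 ± 3.39 CPM.

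Of 41 genes of cytochrome P450 and steroid metabolism, 32 reached 10 CPM. Cyp2a4, a testosterone hydroxylase, was read at 1403, 1451 and 1096 CPM, Cyp4b1, a fatty acid hydroxylase that also activates toxins, at 1605, 1591 and 966 CPM, and Cyp2j5, a renal arachidonic acid epoxygenase, at 1542, 1381 and 1205 CPM. Per length they stood at 2208 ± 437, 1795 ± 534 and 1703 ± 232. Ugt3a2, a glycosyltransferase, stood at 1196 ± 229. Of the vitamin D enzymes, Cyp24a1, which degrades the hormone, stood at 17.4 ± 2.15 length-scaled CPM, and Cyp27b1, which makes it, at 1.31 ± 0.981. Of the 38 genes at 1 CPM or more, 22 were lowest in replicate 3, against 29.7% of all genes.

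The 10 genes linked to uptake and reduction of aristolochic acid were described at baseline only. The carriers Slc22a7, Slc22a6 and Slc22a8 stood at 795 ± 374, 514 ± 205 and 60.6 ± 28.2 length-scaled CPM. Of the reducing enzymes, Por, the electron donor of P450 enzymes, was read at 519, 821 and 530.5 CPM and Nqo1 stood at 122 ± 23.9 per length. Cyp1a1 was at 0, 0.0964 and 0 CPM and Cyp1a2 had no read in any library. These 3 carriers were lowest in replicate 3. Of the 8 genes of the list at 1 CPM or more, 4 were lowest in replicate 3, against 29.7% of all genes, and 3 in replicate 1.

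The 4 Y-linked genes looked up were read in every library, with Kdm5d at 82.6, 102 and 115 CPM and Ddx3y at 70.3, 48.8 and 71.6 CPM. All 13 genes with male-biased expression in mouse kidney reached 100 CPM, against 2027 of the 13859 genes at 1 CPM or more. Besides Kap and Cyp4b1, Acsm3 was read at 2130.4, 1702 and 2044 CPM and Nudt19, a coenzyme A hydrolase, at 1088 ± 337 CPM. Acsm3 shared 38.5% of its 31-base words with the neighbouring gene Eri2. Of the 13 genes, 8 were highest in replicate 1, against 20.7% of all genes, and 9 were lowest in replicate 3, against 29.7%. Genes with female-biased expression were mixed, with Slc7a12 at 115, 79.5 and 116 CPM and Prlr, the prolactin receptor, at 64.03, 146 and 222 CPM, which was highest in replicate 3.

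Hnf4a, the nuclear receptor that drives proximal tubule genes, was the highest of 29 transcription factors and receptors, at 1360.1, 1622 and 1644 CPM and 929.7 ± 143 length-scaled CPM. Vdr, the vitamin D receptor, stood at 158 ± 26.5, and Klf15, a factor of fasting metabolism, at 125 ± 25.2. Ppara, which drives fatty acid oxidation, was read at 87.2 ± 8.92 CPM. Of the 27 that reached 1 CPM, 17 were highest in replicate 2, against 46.3% of all genes.

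Few genes of injury and division reached 10 CPM. Of 14 injury genes, 3 reached 10 CPM: Krt8 at 94.4, 139 and 99.9 CPM, Spp1 at 47.1, 44.4 and 47.8 CPM and Clu at 50.97, 58.8 and 45.9 CPM. The marker of proximal tubule injury Havcr1 was read at 2.93, 3.24 and 3.07 CPM, and Lcn2 and Krt20 stayed under 1 CPM. Krt18, the keratin that pairs with Krt8, was read at 5.44, 3.47 and 4.95 CPM, and 36.05% of the 31-base words of Krt8 occurred in other genes. Of 18 immediate early genes, which respond within minutes to handling of tissue, 8 reached 10 CPM and 15 reached 1 CPM. Jund was read at 99.4, 143 and 132 CPM and Dusp1 at 20.05, 45.5 and 13.8 CPM. Fos was read at 1.21, 1.28 and 2.76 CPM and Atf3 at 0.4603, 0.385 and 0.439 CPM. Of 10 genes of division, 3 reached 10 CPM: Tyms at 45.4, 60.6 and 38.5 CPM, Pcna at 23.1, 23.3 and 28.3 CPM and Mcm2 at 15.5, 13.1 and 14.4 CPM. Of the others, Mki67 was read at 1.63, 2.63 and 1.82 CPM and Cdk1 at 0.209, 0.674 and 0.125 CPM.

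The 3 libraries were close for most genes. Over the 13859 genes at 1 CPM or more, the median coefficient of variation (SD as a percent of the mean) was 17.4%, where counting error alone gave a median of 4.74%. It was 37.3% for genes of 1 to 3 CPM, 12.6% for genes of 100 to 300 CPM and 15.4% for the 95 genes at 1000 CPM or more. The highest library was more than 2-fold above the lowest for 2253 genes (16.3%). The median log2 ratio over the 9093 genes at 10 CPM or more was -0.12 for replicate 1 over 2, -0.06 for replicate 1 over 3 and 0.06 for replicate 2 over 3. Pearson's r across genes at 1 CPM or more, which are not independent replicates, was 0.975, 0.968 and 0.965 for these pairs on the log2 scale.

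**Figure D4:**
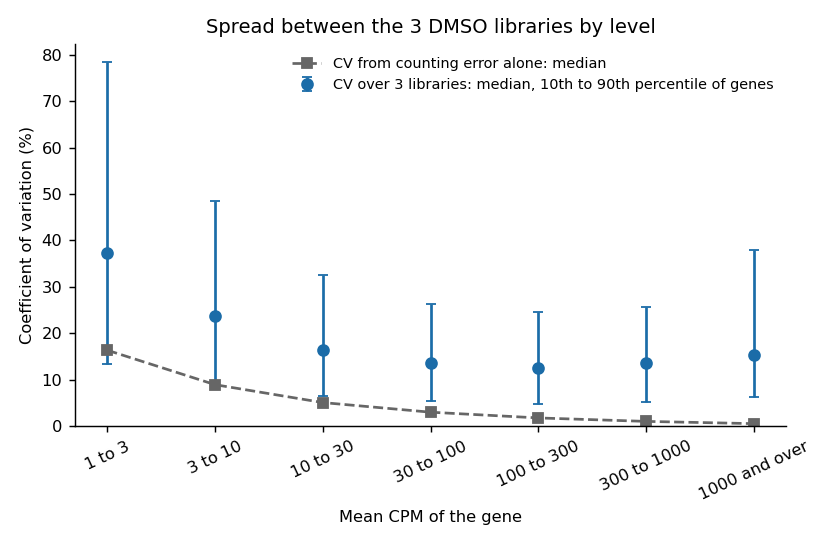
Coefficient of variation over the 3 DMSO libraries in percent (vertical axis) by the mean CPM of the gene (horizontal axis), with circles at the median, bars from the 10th to the 90th percentile of genes, and squares at the median expected from counting error alone. The observed median falls from 37.3% at 1 to 3 CPM to 12.6% at 100 to 300 CPM, and stays above the squares at every level.

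The steadiest of the 200 highest genes by CPM were 4833439L19Rik, Hdlbp, Igf1r, Lrrk2 and Canx. Igf1r, the receptor of insulin-like growth factor 1, was read at 770.2, 738 and 758 CPM. Lrrk2, a kinase with high renal expression, was read at 642, 673 and 666 CPM, Hdlbp, an RNA-binding protein, at 619, 641 and 617 CPM, and Canx, a chaperone of the endoplasmic reticulum, at 786, 794 and 753 CPM.

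Of the genes at 20 CPM or more, 9 of the 10 widest are given, and they differed in which library was high. Lars2, the mitochondrial leucyl-tRNA synthetase, was read at 3925, 203 and 704 CPM, highest in replicate 1. Grip2, a scaffold protein of synapses, was read at 107, 152 and 3.07 CPM, and Rps6ka1, a kinase, at 54.99, 42.1 and 9.78 CPM, both low in replicate 3. Tlr12 and Col16a1 were low in replicate 1, with 2.85, 28.8 and 46.9 CPM and 3.68, 34.98 and 29.7 CPM. Sgk1, the kinase induced by aldosterone and glucocorticoids, was read at 49.2, 178 and 22.7 CPM, Ddit4, an inhibitor of mTOR complex 1, at 8.66, 51.3 and 8.27 CPM, and Angptl4, an inhibitor of lipoprotein lipase, at 28.3, 65.04 and 6.58 CPM. These last 3 were highest in replicate 2, while Angptl7 was highest in replicate 1, at 73.3, 33.05 and 13.2 CPM.

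Set against the mean of the 3 libraries, the summed CPM was lowest in replicate 3 for all proximal tubule, S1 and S2 genes, and for S3 genes replicates 1 and 3 were nearly level. Among the 18 lists plotted, the largest ratio of highest to lowest library was 2.25-fold for the thick ascending limb, 2.13-fold for the principal cell and 1.802-fold for S2 genes. Of lists that are not plotted, the ratio was 4.13-fold for adipocyte, 2.85-fold for neutrophil, 2.03-fold for red blood cell and 1.86-fold for lymphocyte genes, all with sums under 25 CPM, and 1.85-fold for uptake and reduction of aristolochic acid. It was 1.26-fold for S3 genes and 1.04-fold for glutathione and antioxidant genes. Which library was highest depended on the scaling. After TMM scaling, 36.0% of the 13859 genes were highest in replicate 2 in place of 46.3%, 32.8% were highest in replicate 1 in place of 20.7%, and 32.8% were lowest in replicate 3 in place of 29.7%. On that scale 6 of the 10 endothelial genes were highest in replicate 2, and 34 of 45 fatty acid oxidation genes and 19 of 21 tricarboxylic acid cycle genes in replicate 1. The counts lowest in replicate 3 were 9 of 15 for S3 genes, 32 of 45 for fatty acid oxidation genes and 16 of 24 for sugar, phosphate and anion carriers. The sums for S2 and thick ascending limb genes were then highest in replicate 1 in place of replicate 2, the S3 sum was lowest in replicate 3 in place of replicate 1, and the range for glutathione and antioxidant genes was 1.13-fold with replicate 1 in place of replicate 3 highest. Replicate 3 also had the highest mitochondrial share and the lowest depth. Their part in these differences was not tested.

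**Figure D5:**
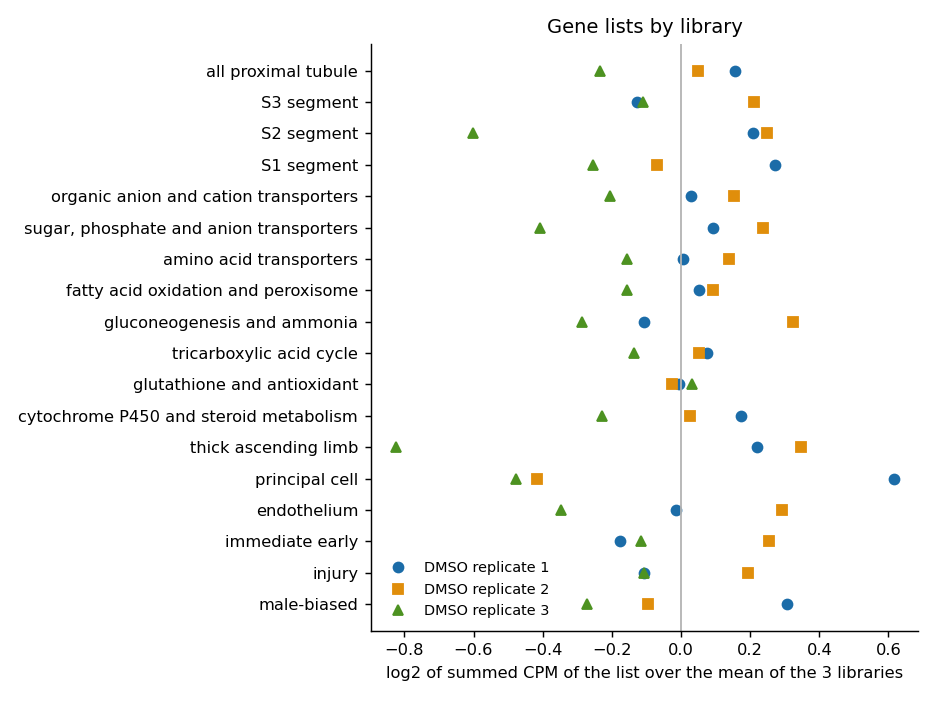
The log2 ratio of the summed CPM of 18 gene lists in each DMSO library to the mean of the 3 libraries (horizontal axis), with 1 symbol for each library and a grey line at 0. Replicate 3 (triangle) lies lowest for S2, thick ascending limb, endothelium and sugar and phosphate carriers, and the 3 symbols nearly coincide for glutathione and antioxidant genes.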

How the data were processed

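The only file was the authors' deposited table, 32544 genes by 6 libraries, in the form log10(CPM + 1). Base and pseudocount were read from the values, and whole reads could be recovered for 100% of them within 0.1 read. Per the submitters' processing notes, bcl2fastq 2.19 and kallisto (no version) were used with the genome build mm10. Per the labels' protocols, a PicoPure kit served for RNA and a TruSeq Stranded mRNA kit for cDNA. Not given in the sources used here were the annotation, the strand setting and the division of reads between near-identical genes. Symbols included 27 spreadsheet dates and 2 duplicates.

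Values were turned back to CPM with Python 3.11.15, numpy 2.4.6, pandas 2.3.3, scipy 1.17.1 and matplotlib 3.10.9. Symbols of 31442 genes (96.6%) were found in GENCODE M21, the source of exonic union lengths, and these genes held at least 98.5% of the reads of every DMSO library. Length-scaled CPM is CPM divided by length in kb and scaled to the CPM total over genes with a length. It can be too low for genes whose annotated exons exceed the transcript in use. Genes at a mean of at least 1 CPM were used for the spread. A count model of the spread had been planned. Since the deposited values were on a log scale, a moment estimate from the recovered reads was used. It was checked on simulated data for genes at 20 CPM or more only. Its root-mean-square variation beyond counting error was 29.5% over all genes at 1 CPM or more. It was 49.7% for genes of 1 to 3 CPM and 18.6% for genes of 30 to 100 CPM. No groups were compared and no test was run. Shares have 95% Wilson intervals.

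The lists and their members were written from general knowledge of mouse kidney, with earlier results of these data known. The genes named were the 15 highest by CPM and the 15 highest per length (without mitochondrially encoded genes and names of pseudogenes or predicted genes), up to 4 highest per length of each function list, up to 3 highest by CPM of each marker list, the 6 given markers, the 10 with the widest ratio of highest to lowest library at 20 CPM or more, and the 5 steadiest of the 200 highest. Some genes that this rule names are not reported here. Other genes were named after their values were seen. Alternatives were another length, another total, other minimum levels, log2 pseudocounts, TMM scaling (own implementation) and leaving out each library.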

Additional observations from a re-analysis of the deposited data

How the results depend on the processing

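No paired analysis was possible because the results describe 1 group and come from no test. Shares taken per length instead of per read were 21.2% for mitochondrially encoded genes, 10.4% for names of pseudogenes and predicted genes (3.70% per read) and 3.23% for solute carriers, so that solute carriers no longer came next. Endocytosis and lysosome genes held 0.891% per length and ABC transporters 0.149%, both less than per read by over 1.5 times. With a minimum of 10 CPM the median coefficient of variation was 14.3%. At the minimum of 1 CPM it was 17.4% over the 3 libraries, and from 12.9% to 15.9% with 1 library left out in turn. A median over 2 libraries is not directly comparable with that over 3. The mitochondrial share with 1 library left out ran from 6.33% to 9.36%. Of 152 values of other classes, lists and genes under alternatives that keep all 3 libraries, 115 moved by less than 1 SD of the 3 libraries and 37 by more, 18 of these under shares per length. Leaving out mitochondrially encoded genes moved 10 of 61. Scaling by TMM or to equal library medians was added after seeing the data. Of 240 counts of genes highest in replicate 1 or 2 or lowest in replicate 3, over the lists and all genes, 176 stayed within 1.5 times of their value as CPM and 64 did not. Low genes are limited by depth, since 1 read was 0.0627 CPM in replicate 3.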

Other observations

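The genes of this section were chosen after their values were seen. Of the clock genes, the output factors Tef, Hlf and Dbp, transcription factors that the clock drives, were read at 434, 629.8 and 453 CPM, 165, 162 and 164 CPM and 102, 140.2 and 112 CPM, and Nr1d2, a clock repressor, at 150.4, 123 and 154 CPM. The activators Arntl and Npas2 were read at 1.67, 1.93 and 2.95 CPM and 1.46, 0.771 and 1.88 CPM, and Clock, a partner of Arntl, at 91.6, 58.2 and 98.9 CPM. Per1 and Per2 differed between libraries, at 37.4, 111 and 21.99 CPM and 53.3, 105 and 62.2 CPM, both highest in replicate 2. The hour of collection is not given in the labels.

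Of 9 genes that steroids or stress can induce, 7 were highest in replicate 2, against 46.3% of all 13859 genes. Besides Sgk1, Ddit4, Angptl4, Per1 and Pck1, this held for Tsc22d3, the glucocorticoid-induced leucine zipper, at 45.3, 85.4 and 33.1 CPM, and Fkbp5, a chaperone of the glucocorticoid receptor, at 97.5, 115 and 106 CPM. Zbtb16 was nearly equal in replicates 1 and 2, at 22.7, 22.4 and 7.02 CPM. Pdk4 was highest in replicate 1, at 21.9, 15.5 and 15.1 CPM.

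Receptors of hormones and growth factors differed in level. Of 12 looked up, 4 are given. Ghr, the growth hormone receptor, was read at 2709, 2075 and 2576 CPM and stood at 781 ± 52.5 length-scaled CPM. Pth1r, the parathyroid hormone receptor that lowers phosphate uptake, was read at 464, 548 and 415 CPM (475 ± 103 length-scaled CPM), and Kl, klotho, the co-receptor of fibroblast growth factor 23, at 591, 489.7 and 454 CPM (159 ± 20.2 length-scaled CPM). Egfr, the epidermal growth factor receptor, was read at 192, 183 and 183 CPM and stood at 47.6 ± 3.04 length-scaled CPM.

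Several genes less often linked to the tubule were high. Apob, the apolipoprotein of chylomicrons and low-density lipoproteins, was read at 1777, 1456 and 1634 CPM, and Lpl, lipoprotein lipase, at 1616, 1554 and 978 CPM. Zbtb20, a transcriptional repressor, was read at 2379, 2215 and 2395 CPM.

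Of 13 immunoglobulin constant genes, Igha and Igkc were read at 182, 321 and 194 CPM and 96.3, 120.4 and 75.6 CPM, and Ighm at 1.63, 2.73 and 1.82 CPM, while the B cell gene Cd79a was at 0.251, 0.128 and 0.188 CPM. Gm29216 was read at 966, 0 and 852 CPM. It shared 97.2% of its 31-base words with mt-Co1, which was lowest in replicate 2 as well. No cause of these patterns was tested.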
